A study of Mus musculus with 4 samples.

Results

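The taste-type signalling cascade is the set of 7 genes Tas1r3, Gnat3, Gnb3, Gng13, Plcb2, Itpr3 and Trpm5, taken by name from the 32288 features of the deposited count tables. The cells were EYFP-positive pancreas cells, sorted alive from 4 mice with pancreatitis. Injections of the peptide caerulein had kept up the injury for 2 weeks in 2 mice and for 4 weeks in the other 2. All mice carried Ptf1aCre-ERTM;ROSAYFP/+ on a CD-1 background, were given tamoxifen before injury and were 10 weeks old when injury began. The mark is driven from the Ptf1a locus, so it follows cells in which that acinar gene was active at tamoxifen, and every group shares the tamoxifen and the caerulein. No uninjured mice were analysed here. Mice are called 2-week mouse 1 and 2 and 4-week mouse 1 and 2, and values for each gene follow that order unless stated.

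In taste buds, sweet and umami receptors that share the subunit encoded by Tas1r3 activate the G protein gustducin, whose alpha subunit is encoded by Gnat3. The beta and gamma subunits (Gnb3 and Gng13 in taste cells) activate phospholipase C beta 2 (Plcb2), the inositol trisphosphate it forms opens the calcium release channel encoded by Itpr3, and calcium then opens Trpm5, a cation channel of the plasma membrane. Tuft cells are rare chemosensory epithelial cells of gut, airway and injured pancreas that use parts of the same cascade, and Trpm5 and Gnat3 are common markers of them.

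The deposited labels name 8 types over 13362 cells and divide 2586 tuft and enteroendocrine cells further. Total UMIs (unique molecule counts) of typed cells ranged from 60224505 to 90547790 per mouse. Cells of type Tuft numbered 83, 665, 212 and 320, with median depths of 19652, 20481, 14809 and 15806 UMIs. A list of 16 tuft markers (Dclk1, Pou2f3, Avil and others) summed to between 15941 and 17801 CPM (UMIs of the gene per 1000000 UMIs of a type in a mouse) in Tuft cells and to at most 1655 CPM in any mouse of the 7 other types. Of the 1280 Tuft cells, 210 were labelled Tuft-1, 457 Tuft-2 and 494 Tuft-3, and 106 had no subtype. Tuft-1 reached 20 cells in only 2 mice, 2-week mouse 2 (166 cells) and 4-week mouse 2 (26 cells), so values for Tuft-1 are given for these mice in that order. In all, 23 cell barcodes occurred in more than 1 mouse, in 47 cells, 4 of them Tuft cells. Types and subtypes had been named on these same counts, so differences between them are described with no test.

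Of the 5 members with at least 10 CPM in some type, 4 stood above every other type in Tuft cells. Gnat3 reached 339, 630, 306 and 292 CPM, and in the next type, Tuft/EEC.Progenitor, it was 128, 44.8 and 57.3 CPM in the 3 mice with at least 20 such cells (2-week mouse 2 and both 4-week mice). Gng13 reached 812, 868, 1186 and 1345 CPM in Tuft cells, against 233, 64.4 and 82.5 CPM in the progenitors. Trpm5 reached 708, 529, 864 and 769 CPM, against 76.5, 61.6 and 91.7 CPM. Plcb2 was 89.0, 60.1, 76.1 and 58.5 CPM in Tuft cells and at most 4.07 CPM in any mouse of the 7 other types. The Tuft mean was 5.12-fold that of the next type for Gnat3, 8.32-fold for Gng13, 9.37-fold for Trpm5 and 43.2-fold for Plcb2. For these 4 the lowest Tuft mouse lay above the highest mouse of each other type, a pattern that 10.9% of the 10655 genes at that level also showed. Plcb2 reached the limit of 10 CPM only through Tuft cells.

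**Figure D1:**
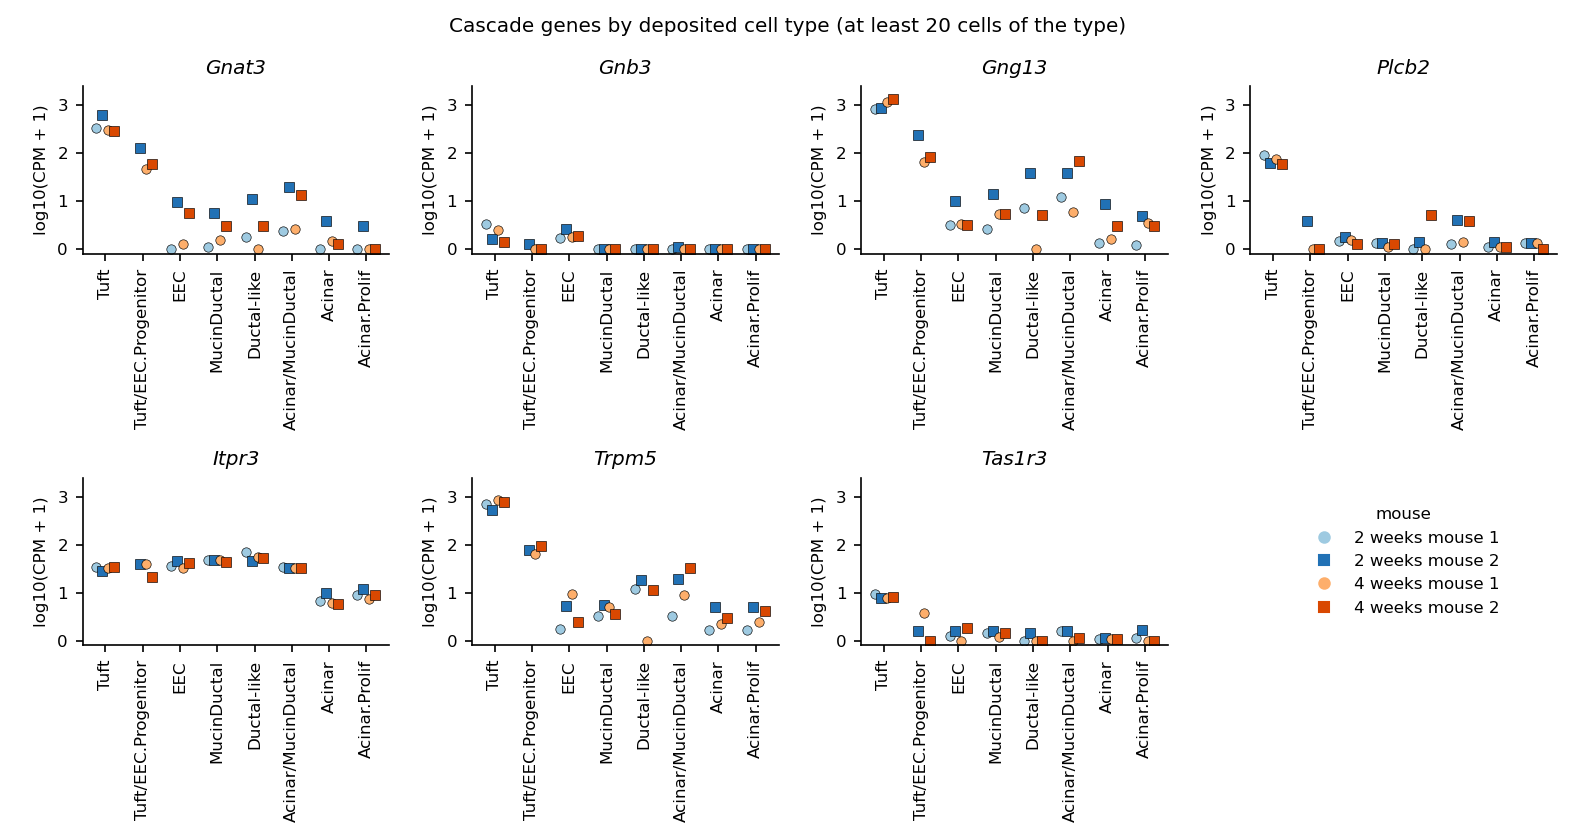
Levels of the 7 cascade genes in the 8 deposited types, 1 point per mouse, as log10(CPM + 1) on a shared vertical scale. Gnat3, Gng13, Trpm5 and Plcb2 are highest in Tuft cells in 4 of 4 mice, Itpr3 is spread over most types, and Gnb3 and Tas1r3 stay low.

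Itpr3 did not follow the others. It was 34.0, 27.0, 31.0 and 33.0 CPM in Tuft cells, below MucinDuctal cells of the same mouse in 4 of 4 mice (46.2, 47.6, 45.9 and 42.3 CPM), and the within-mouse log2 ratio was -0.53 ± 0.19 (SD, n = 4; ratios are of CPM + 1). The highest mean was in enterochromaffin-like ECL (Tac1+) cells, at 78.1 ± 9.87 CPM (SD, n = 4), followed by Ductal-like (54.5 ± 10.2) and Delta (54.0 ± 9.24) cells, which did not differ beyond their spread. Acinar cells had the least, 6.04 ± 1.80 CPM.

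Tas1r3, the only receptor gene of the set, was found at 8.19, 6.65, 6.92 and 7.09 CPM in Tuft cells and at 0 to 2.80 CPM in the 7 other types. The ranges do not overlap, but Tas1r3 was under 10 CPM in every type and so is not among the 4 genes counted above. A Tas1r3 UMI was seen in 152 of 1280 Tuft cells. Its partner subunits were rarer still, with 10 UMIs of Tas1r1 (umami receptor) and 1 UMI of Tas1r2 (sweet receptor) in all Tuft cells. Of the 43 receptor genes of the pathway list, 35 had no UMI in Tuft cells, Sucnr1, the succinate receptor of intestinal tuft cells, among them. Of these receptors, 2 had at least 10 CPM in some type. Ffar3, a receptor for short-chain fatty acids, was 12.4 ± 7.45 CPM in Tuft cells (SD, n = 4) against 0.350 CPM in EEC (enteroendocrine) cells. Its Tuft mice all stood above every other type, but it reached the limit of 10 CPM only through Tuft cells. Its place above the other types is therefore not independent of that limit. The other, Ffar2, was highest in EEC cells, at 162 CPM.

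Gnb3, the beta subunit of taste cells, was rarely seen. It was 2.34, 0.598, 1.504 and 0.383 CPM in Tuft cells, from 19 UMIs in 15 of 1280 cells, and 0.740, 1.58, 0.789 and 0.840 CPM in EEC cells, so the ranges overlap. No UMI of Gnb3 was seen in 494 Tuft-3 cells, which allows a share of up to 0.607% of these cells with the mice pooled. The limit for a single mouse is wider, most of all for 2-week mouse 1 with 35 Tuft-3 cells. Gnb1 and Gnb2, other beta subunits, were seen in most Tuft cells. A UMI of Gnb1 was seen in 96.1% ± 0.88 and of Gnb2 in 98.8% ± 1.26 of Tuft cells (SD, n = 4), and the log2 ratio of Tuft to MucinDuctal was 1.15 ± 0.24 for Gnb1 and 1.19 ± 0.07 for Gnb2. Both were also found at a like level in EEC cells, where Gnb1 was 216 and Gnb2 583 CPM against 239 and 595 CPM in Tuft cells.

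Relatives of the other members were placed differently from gene to gene. Among alpha subunits, Gnai2, an inhibitory alpha subunit, stood above every other type (1283 ± 45.2 CPM against 313 in EEC cells), and Gnat1, the transducin subunit of rods, had no UMI in Tuft cells. Plcg2, a phospholipase C of the gamma class, was 337 ± 11.6 CPM in Tuft cells and 19.0 CPM in the next type. Itpr2, another inositol trisphosphate receptor, was 560 ± 136 CPM in Tuft cells against 90.6 CPM in the progenitors, with a log2 ratio to MucinDuctal of 2.83 ± 0.35, where Itpr3 had -0.53. Rgs13 and Rgs2, which end G protein signals, were 3747 ± 417 and 917 ± 133 CPM. In all, 11 of the 34 pathway genes with at least 10 CPM in some type (of 89 on the list) stood above every other type in Tuft cells, against the same 10.9% of all genes. These were Ffar3, Gnai2, Gng10, Gng12, Plcg2, Itpr2, Rgs2, Rgs13, Ric8a, Ric8b and Grk6. Trpm4, the relative of Trpm5, was not one of them (12.1 CPM in Tuft cells, 26.1 in the progenitors).

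**Figure D2:**
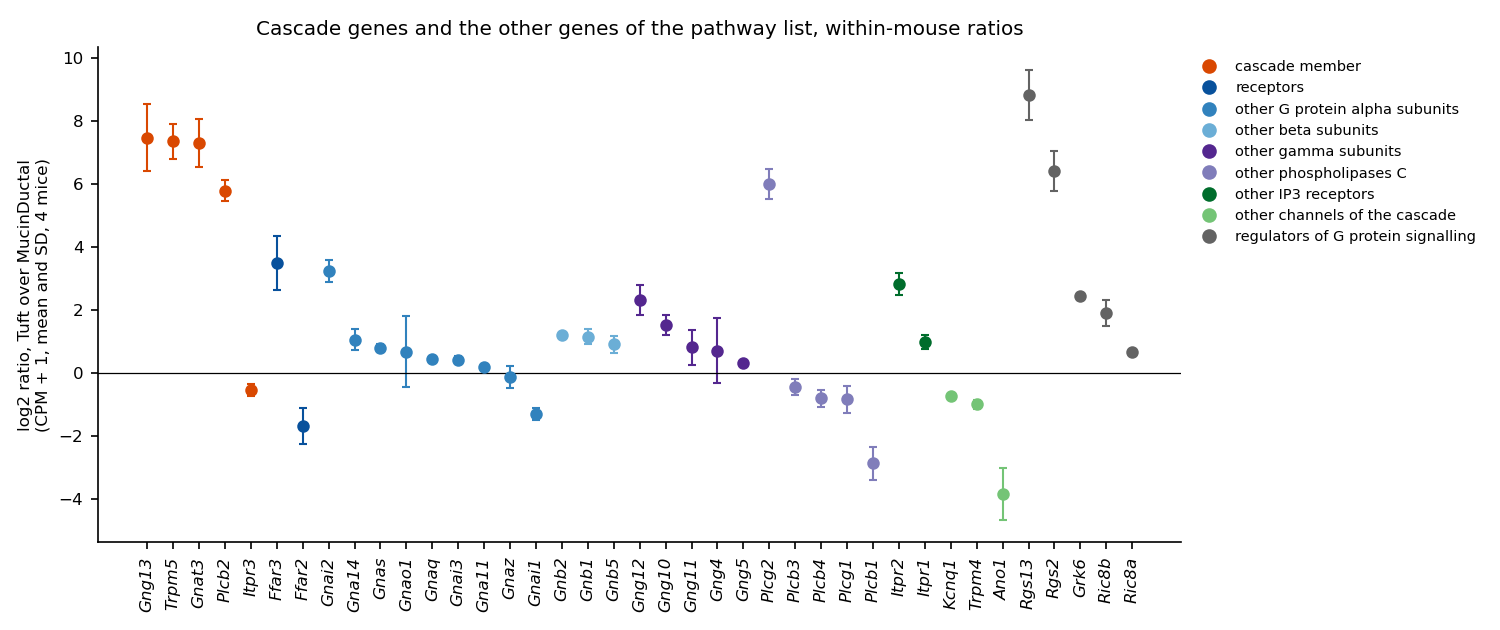
Within-mouse log2 ratio of Tuft to MucinDuctal cells for the 5 cascade genes and the 34 other pathway genes with at least 10 CPM in some type (points, mean; bars, SD over 4 mice; CPM + 1). Gng13, Trpm5, Gnat3 and Plcb2 lie between 5.80 and 7.48, Itpr3 lies below 0, and the pathway genes above 5.80 are Plcg2 (6.01), Rgs2 (6.42) and Rgs13 (8.84).

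Some members were also found in the MucinDuctalProgenitor subtype. These cells reached 20 in 2-week mouse 2 (118 cells) and 4-week mouse 2 (20 cells), where Gng13 was 265 and 172 CPM, Gnat3 135 and 156 CPM and Trpm5 81.9 and 159 CPM. Of these cells, 4 in each mouse were typed Tuft in the wider label table. Without them Gng13 was 252 and 110 CPM, Gnat3 135 and 80.1 CPM and Trpm5 78.3 and 139 CPM, in 114 and 16 cells, so the values of 4-week mouse 2 rest in part on cells typed Tuft. With all cells of the subtype, a UMI of Trpm5 was seen in 68.6% and 55.0%, of Gng13 in 78.0% and 50%, and of Gnat3 in 39.0% and 30.0%. Without the cells typed Tuft these shares were 67.5% and 50% for Trpm5, 77.2% and 50% for Gng13 and 38.6% and 18.8% for Gnat3, the last from 3 of 16 cells. Acinar cells, which should lack these genes and were deeper (median 24008 to 32665 UMIs, against 20946 and 13971 in the progenitors), gave a background of 1.71 to 8.92% for Trpm5, 0.958 to 7.89% for Gng13 and 0 to 3.43% for Gnat3. Other types read higher in their highest mouse. Ductal-like cells reached 37.5% for Trpm5, 39.3% for Gng13 and 10.7% for Gnat3. Acinar/MucinDuctal cells reached 22.5%, 26.6% and 14.3%, and MucinDuctal cells 6.99%, 14.5% and 3.60%. Plcb2 was 3.13 and 0 CPM in the progenitors, with a UMI in 5.08% and 0% of cells. It was seen in 0.336 to 1.20% of Acinar cells and in up to 6.83% of Acinar/MucinDuctal cells. In Delta (Sst+) cells Gnat3 read 238 CPM in 4-week mouse 1 and 0, 8.58 and 11.5 CPM in the others. That value came from 75 UMIs in 2 of 32 cells, and 2 Delta cells of this mouse were typed Tuft in the wider label table. Without these it had no Gnat3 UMI in 30 cells, which allows a share of cells with a UMI of up to 10%.

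Across Tuft-1, Tuft-2 and Tuft-3 the members had different orders. Gnat3 was highest in Tuft-1, at 1654 and 1585 CPM, and stood at 255, 434, 336 and 346 CPM in Tuft-2 and at 188, 148, 129 and 86.6 CPM in Tuft-3. No mouse of one subtype overlapped another. Within mice, the log2 ratio was -2.06 ± 0.19 for Tuft-2 to Tuft-1 (SD, n = 2), -1.34 ± 0.65 for Tuft-3 to Tuft-2 (n = 4, lower in 4 of 4) and -3.83 ± 0.50 for Tuft-3 to Tuft-1 (n = 2). Trpm5 had the opposite order, with 241 and 223 CPM in Tuft-1, 512, 440, 553 and 506 CPM in Tuft-2 and 999, 941, 1215 and 1053 CPM in Tuft-3, again without overlap. Its ratios were 1.02 ± 0.22, 1.06 ± 0.07 and 2.10 ± 0.20. The smaller Tuft-1 samples left out here, 6 cells of 2-week mouse 1 and 12 of 4-week mouse 1, held Gnat3 at 1744 and 1940 CPM and Trpm5 at 170 and 155 CPM.

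Counted as molecules, Tuft-1 cells held 6.85 and 7.11 Gnat3 UMIs for each Trpm5 UMI, and Tuft-3 cells held 0.188, 0.158, 0.106 and 0.0822. Tuft-2 cells lay between, at 0.497, 0.986, 0.608 and 0.684. Such a ratio compares these cells with each other and not the amounts of the transcripts. With each cell thinned to 3000 UMIs, a Gnat3 UMI was seen in 93.1% and 91.5% of Tuft-1 cells, in 51.2, 62.2, 48.6 and 54.5% of Tuft-2 cells and in 40.0, 30.6, 26.3 and 20.4% of Tuft-3 cells (unthinned means 99.7, 89.98 and 67.3%). The thinned share for Trpm5 was 49.9% and 47.3%, then 74.1, 72.7, 74.2 and 74.4%, then 93.9, 92.8, 94.9 and 94.8% (unthinned means 92.8, 97.3 and 99.6%). Thinned Acinar cells showed Gnat3 in at most 0.605%.

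**Figure D3:**
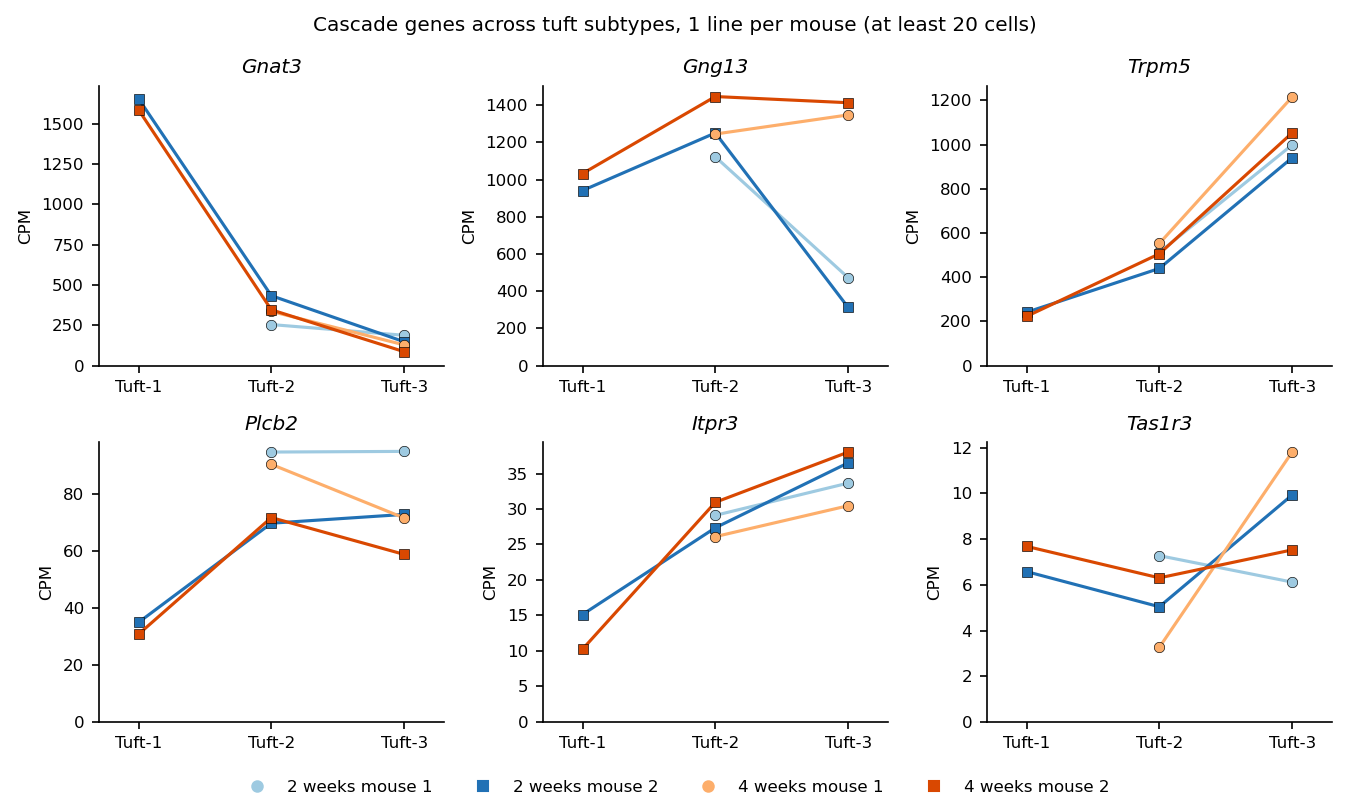
CPM of 6 cascade genes in Tuft-1, Tuft-2 and Tuft-3, 1 line per mouse, for mice with at least 20 cells of the subtype, so Tuft-1 has 2 points. Gnat3 is lower and Trpm5 higher at each step in every mouse shown, and Gng13 parts in Tuft-3, at 473 and 313 CPM after 2 weeks against 1347 and 1413 CPM after 4.

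In the mice with at least 20 cells, Plcb2 and Itpr3 were lowest in Tuft-1. Plcb2 was 34.9 and 30.7 CPM there, 94.6, 69.7, 90.3 and 71.6 CPM in Tuft-2 and 94.8, 72.7, 71.5 and 58.7 CPM in Tuft-3. In the small Tuft-1 samples of 2-week mouse 1 and 4-week mouse 1, however, Plcb2 was 47.5 and 66.3 CPM, from 7 and 12 UMIs, and the second lies within the Tuft-3 range. Tuft-2 and Tuft-3 overlapped for Plcb2 (ratio -0.14 ± 0.20, 2 of 4 mice higher). Itpr3 was 15.1 and 10.2 CPM in Tuft-1, from 50 UMIs in both mice together, the second mouse with only 26 cells. In the small samples it was 6.79 and 16.6 CPM, from 1 and 3 UMIs. It was 29.1, 27.4, 26.1 and 30.9 CPM in Tuft-2 and 33.6, 36.5, 30.5 and 38.0 CPM in Tuft-3. Within mice it was higher in Tuft-3 than in Tuft-2 in 4 of 4 (0.28 ± 0.09). Tas1r3 was 6.58 and 7.68 CPM, then 7.28, 5.04, 3.26 and 6.30, then 6.12, 9.93, 11.8 and 7.53 CPM, and all 3 ranges overlapped. It rests on 23, 47 and 80 UMIs. Gng13 is described with time below.

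By a rule of at least 2-fold in the mean and the same direction in every mouse, 3 of the 5 members with at least 10 CPM were higher in Tuft-2 than in Tuft-1 (Plcb2, Itpr3 and Trpm5; 7.73% of all genes) and 1 was lower (Gnat3; 4.89%). From Tuft-2 to Tuft-3, 1 was higher (Trpm5; 2.57%) and 1 lower (Gnat3; 1.38%). From Tuft-1 to Tuft-3, 2 were higher (Itpr3 and Trpm5; 13.4%) and 1 lower (Gnat3; 8.4%). The median log2 ratio over all genes was 0.01, 0.03 and 0.01 for the 3 comparisons. The 3 members higher in Tuft-2 than in Tuft-1 lay close to the 2-fold limit (1.09, 1.16 and 1.02), and the count was 0 without 4-week mouse 2 and 1 with at least 10 cells per mouse. Of the pathway list, 3 of 27 genes were higher and 2 lower from Tuft-1 to Tuft-2, 1 of 25 higher and 1 lower from Tuft-2 to Tuft-3, and 4 of 27 higher and 1 lower from Tuft-1 to Tuft-3. A gene entered these counts if its mean reached 10 CPM in either subtype compared, which can be the one where it is high. Ffar3, the gene higher from Tuft-2 to Tuft-3, went from 1.77 ± 1.11 CPM in Tuft-1 (n = 2) through 4.87 ± 3.15 to 24.5 ± 13.2 CPM in Tuft-3 (n = 4). Its mean reached the limit only through Tuft-3, so its count as higher is not independent of that limit. Rgs2 was 1234 ± 150 CPM in Tuft-2 and 615 ± 59.5 CPM in Tuft-3. Gng12, another gamma subunit, was 84.4 ± 14.7, 272 ± 68.6 and 362 ± 106 CPM.

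Single tuft cells carried several members at once. Of the 7 genes, a Tuft-1 cell had a UMI of 3.49 ± 0.26 on average (SD, n = 2), a Tuft-2 cell of 4.02 ± 0.20 and a Tuft-3 cell of 3.73 ± 0.20 (n = 4), against 0.28 ± 0.11 in Acinar cells. Thinned to 3000 UMIs the means were 2.43, 2.49 and 2.25, against 0.039. Gnat3 and Trpm5 were seen in the same cell in 92.5% ± 0.33 of Tuft-1, 88.0% ± 5.67 of Tuft-2 and 67.0% ± 11.8 of Tuft-3 cells, and in 0.361% ± 0.563 of Acinar cells. At an equal depth of 3000 UMIs per cell these means were 44.2, 39.0 and 27.3%, against 0.0131% in Acinar cells. A UMI of each of Gnat3, Gng13, Plcb2 and Trpm5 was seen in 26.8% ± 10.7, 60.2% ± 10.1 and 39.5% ± 13.2 of the 3 subtypes and in no Acinar cell of any mouse. Other cells came closer than Acinar cells. MucinDuctalProgenitor cells, some typed Tuft, had 2.04 ± 0.55 members (n = 2), and 28.6% ± 12.2 had both Gnat3 and Trpm5. Tuft/EEC.Progenitor cells had 1.58 ± 0.57 (n = 3) and 16.6% ± 15.6. Thinned to 3000 UMIs, these had 0.923 and 0.617 members. In 2-week mouse 2, all 4 genes were seen in 3.39% and 2.82% of them, 1.79% of Ductal-like and 1.02% of Acinar/MucinDuctal cells. Single-cell levels were scaled to 10000 UMIs of a cell. In Tuft-1 cells the median Gnat3 count was 15.2 and 16.8 per 10000 UMIs and the 10th percentile 4.74 and 4.22, which lay above the Tuft-3 medians of 1.78, 0.951, 0.871 and 0.482.

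**Figure D4:**
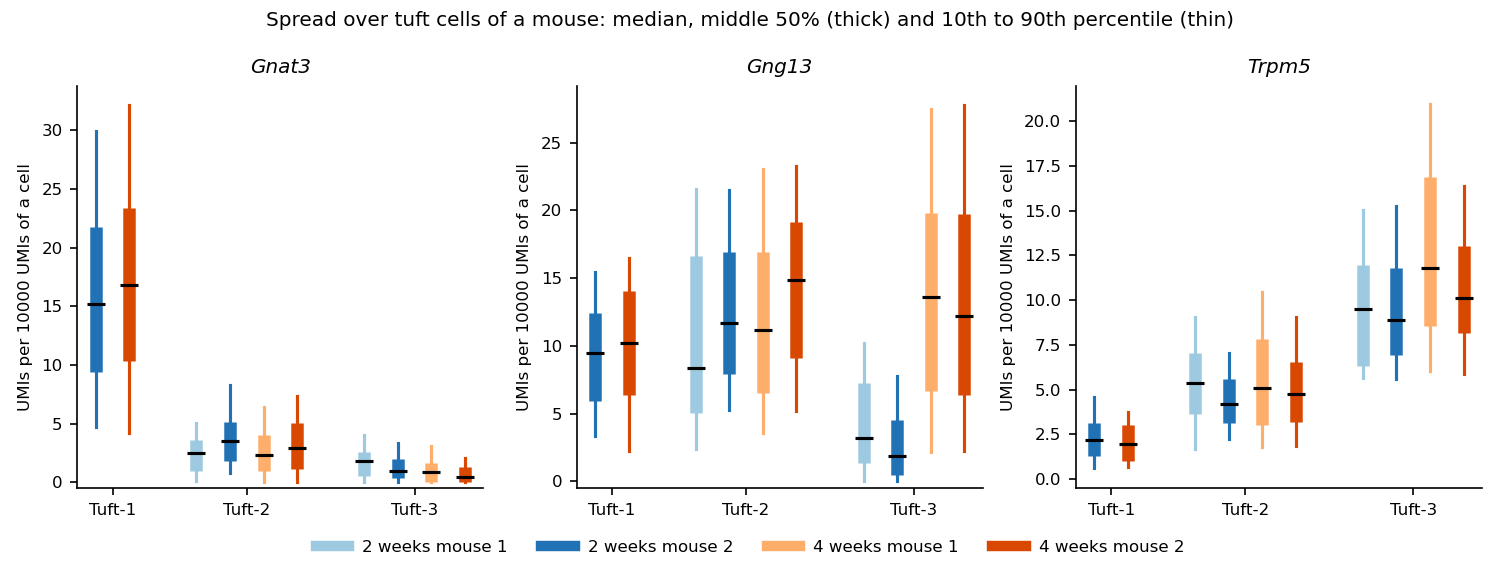
Spread over cells of each mouse and tuft subtype for Gnat3, Gng13 and Trpm5, in UMIs per 10000 UMIs of a cell (black tick, median; thick bar, middle 50% of cells; thin bar, 10th to 90th percentile). The Gng13 medians in Tuft-3 are 3.19 and 1.88 after 2 weeks of injury, against 13.6 and 12.2 after 4 weeks.

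Genes with the most similar pattern were sought over the 10 mouse sums of the 3 subtypes, among 3095 genes with a mean of at least 50 CPM, on log2(CPM + 1). The sums share mice, libraries and the subtype definition, so the coefficients are descriptions. Closest to Gnat3 were Rack1, Hnrnpa2b1 and Rps26 (Pearson r 0.99, 0.99 and 0.98), the first and last of them parts of the ribosome. Closest to Trpm5 were Tmed3, Tmem59 and Ndufa1 (0.99, 0.99 and 0.99). Closest to Itpr3 were Alox5ap, which serves leukotriene synthesis, Rab27a and Siglecf (0.99 each), and Alox5ap went from 1291 CPM in Tuft-1 to 2912 and 3390 CPM. For Plcb2 they were 2610528J11Rik, Ifngr2 and Cox7b (0.96, 0.96 and 0.95), and for Gng13 Ppp1r35, Prpsap1 and Arid5b (0.89, 0.84 and 0.79). Among the members, Gnat3 and Trpm5 had an r of -0.97, Gnat3 and Itpr3 -0.92 and Plcb2 and Itpr3 0.82, and Gng13 stayed between -0.25 and 0.25 with each of the others. For Gnb3 and Tas1r3 the counts are too sparse to rank by pattern.

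The 250 bases before the RefSeq start (GRCm38.p6) are shown for 4 members, Gnat3 and Trpm5 because their order over the subtypes was opposite, Gng13 because it changed with time, and Itpr3 because it was not higher in Tuft than in MucinDuctal cells. Capitals mark matches to any of 4 motifs searched on both strands, the octamer ATGCAAAT of POU factors such as Pou2f3, the ETS-type sequence GAGGAAGT, the E-box CAGCTG and the TATA box TATAAA.
Gnat3 (chr5:17962320-17962569, plus strand): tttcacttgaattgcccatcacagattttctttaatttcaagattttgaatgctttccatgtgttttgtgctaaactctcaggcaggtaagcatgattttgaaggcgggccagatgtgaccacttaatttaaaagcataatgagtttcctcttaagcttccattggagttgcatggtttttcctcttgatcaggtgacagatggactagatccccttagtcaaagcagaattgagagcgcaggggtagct
Trpm5 (chr7:143094643-143094892, minus strand): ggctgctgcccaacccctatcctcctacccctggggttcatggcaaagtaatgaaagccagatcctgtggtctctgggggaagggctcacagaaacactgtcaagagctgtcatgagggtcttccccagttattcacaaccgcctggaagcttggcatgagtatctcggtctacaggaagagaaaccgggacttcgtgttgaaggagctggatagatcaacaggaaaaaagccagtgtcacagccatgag
Gng13 (chr17:25716922-25717171, plus strand): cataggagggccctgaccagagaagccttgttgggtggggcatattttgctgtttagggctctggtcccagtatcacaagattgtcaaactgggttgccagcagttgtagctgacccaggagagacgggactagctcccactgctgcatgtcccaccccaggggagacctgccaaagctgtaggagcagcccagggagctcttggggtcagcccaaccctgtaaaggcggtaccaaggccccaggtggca
Itpr3 (chr17:27057054-27057303, plus strand): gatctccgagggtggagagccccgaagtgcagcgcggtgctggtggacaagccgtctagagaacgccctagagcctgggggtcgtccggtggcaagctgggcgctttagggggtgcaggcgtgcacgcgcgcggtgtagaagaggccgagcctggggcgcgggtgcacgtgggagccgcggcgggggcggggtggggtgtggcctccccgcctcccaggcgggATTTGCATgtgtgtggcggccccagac
Of the 7 members, 6 had a window in the table, 7 windows in all, and Gnb3 had none. Itpr3 held the octamer in its reverse form, ATTTGCAT, 27 bases before the start, and the Tas1r3 window held a CAGCTG 215 bases before it. The other windows, of Gnat3, Gng13 (2 windows), Plcb2 and Trpm5, held none of the 4 letter strings. Over all 32851 windows of that length, 1.60% held the octamer, 2.44% GAGGAAGT, 13.0% CAGCTG and 12.4% TATAAA, and no match in a member overlapped another.

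Gng13 was the only one of the 6 members tested whose change with time passed in Tuft-3 cells, where 2 had an unadjusted edgeR p under 0.05. Its change there differed from that in Tuft-2 when the deposited subtypes were used. In Tuft-3 it was 473 and 313 CPM at 2 weeks and 1347 and 1413 CPM at 4 weeks, so the groups do not overlap. It rose by 1.82 on the log2 scale (SE 0.19, edgeR quasi-likelihood test, Benjamini-Hochberg adjusted p 0.00586, n = 2 mice per time). It was 1 of 6 members tested in Tuft-3, where 0.114% of 9648 genes were called, 5 of them higher (0.0518%) and 6 lower (655 at an unadjusted p under 0.05). In Tuft-2 Gng13 was 1122 and 1250 CPM at 2 weeks and 1244 and 1446 CPM at 4 weeks, and the groups overlap (log2 change 0.18, SE 0.12, adjusted p 1.00). In Tuft-1 it was 941 CPM in the 2-week and 1032 CPM in the 4-week mouse. The difference of the time change between Tuft-3 and Tuft-2, fitted with mouse as a block, was 1.69 on the log2 scale (SE 0.20, edgeR adjusted p 0.0161). Gng13 was 1 of 6 members tested there, where 0.235% of 9787 genes were called (0.102% higher).

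Seen within mice, Gng13 in Tuft-3 stood below Tuft-2 after 2 weeks (log2 ratio -1.25 and -1.996) and level with it after 4 (0.11 and -0.03). The share of Tuft-3 cells with a Gng13 UMI was 85.7, 79.0, 98.2 and 97.0%, and with cells thinned to 3000 UMIs it was 59.6, 46.3, 88.0 and 87.6%, against at most 1.39% in thinned Acinar cells. The 75th percentile over Tuft-3 cells was 7.27 and 4.55 UMIs per 10000 at 2 weeks, and the 25th percentile was 6.65 and 6.39 at 4 weeks, so most cells of the later mice lay above most cells of 2-week mouse 2, with some overlap with 2-week mouse 1. In Acinar cells, as background, Gng13 was 0.359, 7.55, 0.613 and 1.99 CPM. Gng13 lies on chromosome 17 at 25717171 to 25719406 (GRCm38, plus strand), and its 3' end overlaps Chtf18 on the opposite strand, which had 0, 1, 8 and 4 UMIs in Tuft-3 cells.

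**Figure D5:**
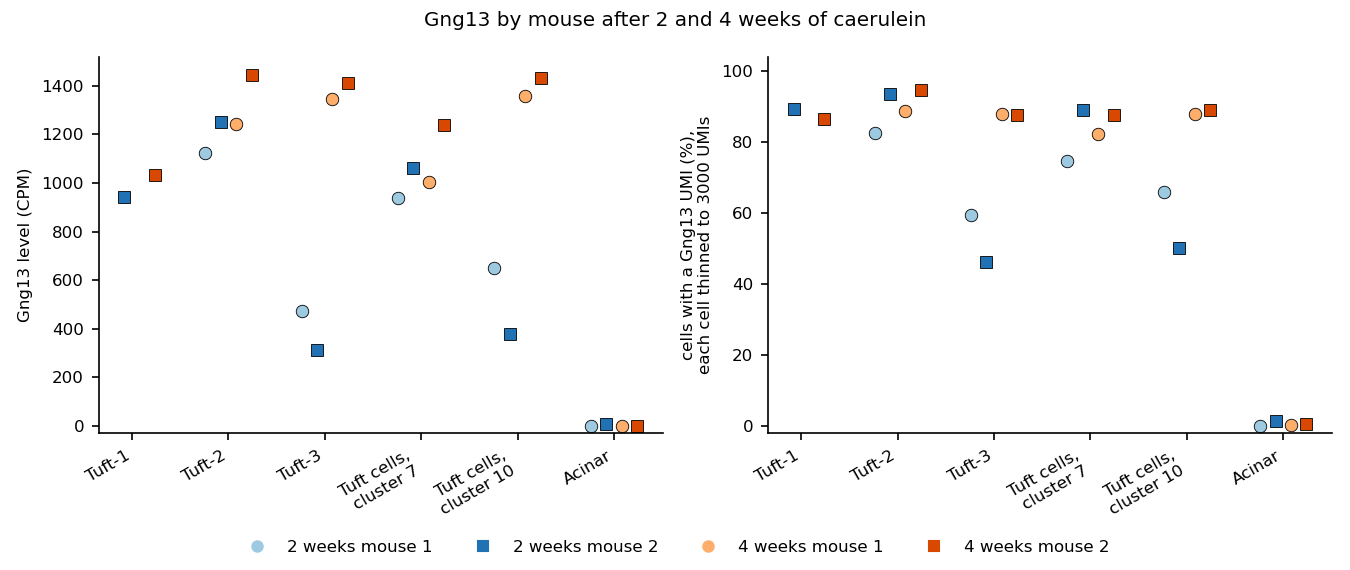
Gng13 by mouse in tuft subtypes, in Tuft cells of 2 of the authors' clusters of all EYFP-positive cells, and in Acinar cells (left, CPM; right, share of cells with a UMI after thinning to 3000 UMIs; at least 20 cells). The 2-week mice lie apart from the 4-week mice in Tuft-3 and in cluster 10, and not in Tuft-2.

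The call in Tuft-3 depended on which cells and mice were used. In the Tuft cells of the authors' cluster 10, which holds 452 of the 494 Tuft-3 cells, Gng13 was 652 and 378 CPM at 2 weeks and 1357 and 1433 CPM at 4 weeks, still without overlap, but the change of 1.42 did not pass (edgeR adjusted p 0.173), and without 4-week mouse 2 it did not pass in Tuft-3 (1.76, adjusted p 0.206). The difference between cluster 10 and cluster 7, which also holds most Tuft-1 cells, taken in place of Tuft-3 and Tuft-2, was 1.32 and did not pass either (SE 0.38, edgeR adjusted p 0.628). The subtype labels were set on these counts, and their part in the result was not tested. In the same Tuft-3 cells the tuft marker sum was 17947 and 18873 CPM at 2 weeks and 18827 and 20031 CPM at 4 weeks. The mucin and ductal list (11 genes) summed to 1243 and 1544 CPM and then 1858 and 2020 CPM, the immune list (12 genes, Cpa3 at 0) to 428 and 362 and then 326 and 305 CPM, and the acinar list (12 genes) to 5407 and 2459 and then 3289 and 5123 CPM. Median depth was 17942 and 21310 UMIs at 2 weeks and 13621 and 15792 UMIs at 4 weeks. The enteroendocrine, proliferation, fibroblast and endothelial sums overlapped between times. The mucin and ductal sum, the immune sum and the depth thus separate the time points as Gng13 does, and their part in the result was not tested. The separation of the immune sum was lost without Lyz2, a gene of myeloid cells (2-week mice 376 and 297, 4-week mice 322 and 295 CPM). Lyz2 was not alone in falling. C1qa (79.5 and 11.3, then 1.86 and 1.88 CPM) and C1qb (70.4 and 9.93, then 2.49 and 1.13 CPM) were also lower in both 4-week mice. So were Tyrobp (32.1 and 10.2, then 0 and 7.90 CPM) and Adgre1 (4.59 and 1.07, then 0.622 and 0 CPM). Ptprc went the other way, and Kit, the highest of the list in each mouse, overlapped (150 and 179, then 231 and 150 CPM). The separation of the mucin and ductal sum held with each of its 11 genes left out in turn. Its largest rises were those of Tff2 (102 and 166 to 376 and 540 CPM) and Gkn3 (96.4 and 194 to 293 and 377 CPM). Cldn18 rose less (87.2 and 63.6 to 197 and 131 CPM). Sox9 stayed level (782 and 813, then 798 and 808 CPM) and Krt7 fell (127 and 156 to 111 and 59.9 CPM). The sum without both Tff2 and Gkn3 was not tested. Sex-linked genes also differed between mice. With 4-week mouse 1 left out, so that only 4-week mouse 2 stood for its time, Xist had the smallest p in Tuft, Tuft-2 and Tuft-3 cells. In the same setting it was Ddx3y in Acinar and Kdm5d in MucinDuctal cells. Sex was not a covariate in any fit, and its part in the change of Gng13 was not tested.

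The other genes that rose in Tuft-3, named after their values were seen, were Clec4a1, Pcdh20, Gm5662 and Tm4sf4. The smallest p was that of Serpini1, which fell by 1.87 (edgeR adjusted p 0.00586), from 94.8 and 95.02 to 25.5 and 26.7 CPM. Among the genes that fell was also the immune marker Lyz2 (52.0 and 65.8 to 3.73 and 10.2 CPM, edgeR adjusted p 0.0153). Other genes of the immune list moved both ways, and Ptprc was higher in both 4-week mice (38.2 and 81.6 to 85.2 and 123 CPM). The smallest p of the difference between subtypes was that of Galnt12 (-2.28, edgeR adjusted p 0.00138).

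The remaining members did not pass over time in any type in which they were tested, and Gnb3 had too few counts to pass the gene filter in any of them. Gnat3 in Tuft-3 was lower in both 4-week mice, without overlap (188 and 148 against 129 and 86.6 CPM), but its change of -0.65 (SE 0.21) had an edgeR adjusted p of 0.477, and the difference from Tuft-2 was -0.55 (adjusted p 0.931). With each mouse left out in turn that difference ranged from -1.27 to -0.19, and without 2-week mouse 2 it passed (-1.27, edgeR adjusted p 0.000248). In Tuft-3, Trpm5 was higher and Plcb2 lower in both 4-week mice, also without overlap. The log2 change of Trpm5 was 0.21 in Tuft-3 (edgeR adjusted p 0.865) and 0.16 in Tuft-2 (1.00), that of Plcb2 -0.35 (0.820) and 0.02 (1.00), and that of Itpr3 -0.06 (1.00) and 0.06 (1.00). Over all Tuft cells the change was 0.59 for Gng13 (SE 0.13, edgeR adjusted p 0.341) and -0.71 for Gnat3 (adjusted p 0.786). In that fit 0% of 10967 genes were called (739 at an unadjusted p under 0.05). With no gene filter the edgeR adjusted p was 0.0172 for Gng13 and 0.00241 for Gnat3, but 266 of 18458 genes were then called. DESeq2 called Gng13 alone among the members (adjusted p 0.0332), and 30 of 18458 genes in all. With mice left out in turn the change of Gnat3 ranged from -1.07 to -0.19. The make-up of the Tuft type differed between mice, with Tuft-1 at 6 of 83, 166 of 665, 12 of 212 and 26 of 320 cells and Tuft-3 at 35, 181, 113 and 165 of them. The part of this make-up in the change over all Tuft cells was not tested. Over the 13 types and subtypes tested other than Tuft-3, 0 of 40 tests of a member passed by edgeR. In these, 3 had an unadjusted p under 0.05 (Trpm5 and Gng13 in Tuft cells, Trpm5 in EEC-Progenitor cells) and 1 passed by DESeq2 (Gng13 in Tuft cells). Tuft cells include the 494 Tuft-3 cells and the Tuft-2 cells, so the tests are not separate from each other nor all free of Tuft-3 cells. Of all genes, 0.159% were called in Ppy+ (0.0796% higher), 0.0816% in ECL (0.0272% higher), 0.0453% in EEC-Progenitor (0.0113% higher), 0.0154% in Delta, all of them higher, and 0.00995% in Acinar.Prolif cells, and 0% in the rest. Of the pathway list, 27 of 89 genes were tested in Tuft-3 and 24 in Tuft-2, and 0 passed in either by edgeR (smallest adjusted p 0.193 and 0.376) or DESeq2, with 4 and 2 at an unadjusted edgeR p under 0.05. Over all Tuft cells 0 of 32 passed by edgeR (4 had an unadjusted p under 0.05), whereas DESeq2 called 1 of them, Gng12 (0.85 on the log2 scale, DESeq2 adjusted p 0.000593; edgeR adjusted p 0.144).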

How the data were processed

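Raw UMI counts per gene and cell were deposited by the authors with no normalization, together with cell type and subtype names. Per the submitters' processing notes, Cell Ranger 4.0.0, Seurat 3.2.3 and the build mm10 were used, and how names were assigned is not given in the sources used here. Counts were summed per mouse and type and are given as CPM. A type was used where a mouse had at least 20 of its cells. Time was tested on the sums with edgeR 4.0.16 (quasi-likelihood, robust, TMM, filterByExpr, R 4.3.3) over all genes of a type, with Benjamini-Hochberg adjustment and a threshold of 0.05. DESeq2 1.42.0 was an alternative. The mouse is the replicate, n = 2 per time, and mice numbered alike are not paired. Shares were recomputed with each cell thinned to 3000 UMIs (20 draws, shallower cells left out). P-values of the time tests measure only the spread between these mice, shared in part across genes. In the test of the difference between subtypes the mouse is a block. Its p-values measure how the ratio of the subtypes varies between mice of the same time. No doublet caller was run. Scripts were tested on simulated counts with a spread set alike for all genes. There the time test recovered 146 of 174 changed genes in Tuft-3 and 135 of 150 in Tuft-2. The test of the difference between subtypes recovered 49 of 158, so a gene that did not pass it may still differ. Members, gene lists and tests were chosen with earlier results of these data known. Named genes are the members, the pathway list, tuft markers, the 3 genes nearest each member by pattern and the gene of smallest p in a type, beside those said to have been chosen later. The alternatives are another normalization, no gene filter, a fit that is not robust, other cell minimums, leaving out the deepest 5% of cells, library sizes without acinar genes, another pseudocount, leaving out each mouse and, added after the data were seen, the authors' clusters in place of subtypes, subtypes without cells typed Tuft and marker sums with each gene left out. Gene positions are from GENCODE M21 and promoter windows from RefSeq.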

Additional observations from a re-analysis of the deposited data

Results flagged for a closer look

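Gng13 was set apart because its change over time differed between 2 tuft subtypes of the same mice. From 2 to 4 weeks it changed by 1.69 more on the log2 scale in Tuft-3 than in Tuft-2 cells (edgeR interaction with mouse as a block, adjusted p 0.0161). Tuft-3 was higher in 2 of 2 mice at 4 weeks than in either mouse at 2 weeks. The difference passed with no gene filter, where 66 of 17555 genes were called, and by DESeq2, where 2 of 17555 were. Over all 7 alternatives it ranged from 1.29 to 2.01 on the log2 scale. Those that leave out a mouse rest on a single residual degree of freedom. It did not pass with the authors' clusters 7 and 10 in place of Tuft-2 and Tuft-3 (1.32, edgeR adjusted p 0.628).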

How the results depend on the processing

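With 2 mice per time, tests rest on a spread shared across genes, and where a mouse is left out its partner is assumed to vary like the others. Low counts of Gnb3 and Tas1r3 limit what can be said of them. No paired analysis was possible because mice of the 2 time points share only numbers given in accession order.

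Over 10 alternatives the change of Gng13 over time in Tuft-3 ranged from 1.42 to 2.12. Fits that leave out a mouse have 1 mouse at a time point and rest on a single residual degree of freedom. With all 4 mice, Gng13 was called with no gene filter (187 of 16180 genes called), by DESeq2 (14 of 16180) and with DESeq2 size factors (11 of 9648). Gng13 was also called with a fit that is not robust (5 of 9648) and with library sizes without acinar genes (12 of 9639). It was not called in the Tuft cells of the authors' cluster 10 (1.42, adjusted p 0.173) or without 4-week mouse 2 (1.76, adjusted p 0.206), where the number of members called is 0, and over the mice left out in turn it ranged from 1.54 to 2.12. The difference of its change between Tuft-3 and Tuft-2 was 1.32 (adjusted p 0.628) between clusters 10 and 7, where 0 members were called, and the cause was not tested. The number of members called in that difference was 1 to 2 with mice left out, the second being Gnat3 (-1.27, adjusted p 0.000248, without 2-week mouse 2). Over time in Tuft cells, 2 members were called with no gene filter, where 266 of 18458 genes were called, in place of 0. By DESeq2 it was 1 member, among 30 of 18458 genes. In Delta cells 1 member was called with no gene filter, where 24 of 15439 genes were called. With mice left out, which leaves 1 mouse at a time point, the number also moved in some fits. This was so in Tuft, Delta, Ductal-like, EEC, EEC-Progenitor, MucinDuctal and Ppy+ cells.

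Members higher in Tuft-2 than in Tuft-1 numbered 1 with at least 10 cells per mouse, 0 with log2(CPM + 10) and 0 to 3 with mice left out, in place of 3. Members lower in Tuft-3 numbered 1 to 2 against Tuft-2 and 1 to 2 against Tuft-1 with mice left out. Thinning lowered the members seen per cell to 2.43, 2.49 and 2.25 in Tuft-1, Tuft-2 and Tuft-3, and left 2 members seen in over 50% of Tuft-2 cells and 1 of Tuft-3 cells of every mouse. The log2 ratios of Gnat3 and Trpm5 between subtypes kept their sign in the 10 alternatives run for each.

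Some changes over time that did not pass turned sign with a mouse left out, those given here, and the cause was not tested. With mice left out in turn, the log2 change in Tuft cells ranged from -0.42 to 0.16 for Plcb2, -0.087 to 0.25 for Itpr3 and -0.23 to 0.081 for Tas1r3. In Tuft-2 it ranged from -0.34 to 0.42 for Gnat3, -0.26 to 0.19 for Plcb2 and -0.11 to 0.16 for Itpr3. In Tuft-3 it ranged from -0.26 to 0.10 for Itpr3 and -0.23 to 0.60 for Tas1r3, which was -0.057 in cluster 10. The difference between subtypes ranged from -0.18 to 0.075 for Itpr3, -0.029 to 0.14 for Trpm5 and -0.50 to 1.08 for Tas1r3.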
